A study of Mus musculus with 3 samples.

Results

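Angptl4, its target lipoprotein lipase (Lpl), the lipase maturation factor Lmf1, the receptors Ppara, Ppard and Pparg, the carnitine shuttle genes Cpt1a, Cpt2 and Slc25a20, and the kinase gene Pdk4 were followed in macrophages given 3 different fatty acids. These 10 genes were chosen by name, as annotated gene symbols, out of 18820 genes measured by their own probe sets, and each of the 10 has 1 probe set. The cells were RAW264.7, a mouse macrophage line, with no genetic change named in the labels. Every culture received albumin-coupled fatty acid at 500 µM for 6 hours, with 2 molecules of fatty acid to each albumin. The groups are oleate (cis, monounsaturated), elaidate (the trans isomer of oleate) and palmitate (saturated, with a shorter chain), each measured on 1 whole-transcript array. No array of cells without fatty acid was analysed here, so a value describes a pair of arrays, carries no replicate error and no p-value, and does not show a response to fatty acid itself.

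The protein ANGPTL4 is secreted and inactivates lipoprotein lipase, the enzyme that frees fatty acids from circulating triglycerides. In macrophages this is known to limit the uptake of fatty acids from triglyceride-rich particles. The PPAR proteins are nuclear receptors that bind fatty acids, pair with RXR receptors on DNA and raise the transcription of genes of fatty acid use, Angptl4, Cpt1a and Pdk4 among their known targets. The carnitine shuttle carries long-chain fatty acids into mitochondria: CPT1A joins them to carnitine at the outer membrane, SLC25A20 carries the acylcarnitine across the inner membrane, and CPT2 returns the fatty acid to coenzyme A. PDK4 phosphorylates and thereby restrains pyruvate dehydrogenase, which favours fatty acid over glucose as fuel.

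Cpt1a stood apart from the other 9 genes, with a palmitate value about 3-fold below oleate (a fold of 3.02). Lpl had its lowest value on the palmitate array and its highest on the elaidate array. Angptl4 differed little among the 3 arrays. Cpt2, Ppara, Pparg and Pdk4 had the same value on all 3 arrays, and of the PPAR genes Ppard was the one well above background.

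Levels are log2 expression values, so 1 unit is a 2-fold difference. Olfactory and vomeronasal receptor genes are mostly used in sensory tissue, and the 95th percentile of 1159 such genes was used as a gauge of the signal without transcript. It was 3.22 for oleate, 3.19 for elaidate and 3.21 for palmitate. A gene at or below it on all 3 arrays is described as near background. Ppara and Pdk4 were near background, and Pparg lay only 0.13 above the gauge on average. Such levels were common, since 34.8% of all genes had a lower mean than Ppara, 42.2% than Pparg and 10.2% than Pdk4. These 3 genes also lay below the filter on low values, the median of all genes at 4.14. The other 7 were above both limits, and counts over all genes use the 9410 genes past that filter.

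**Figure D1:**
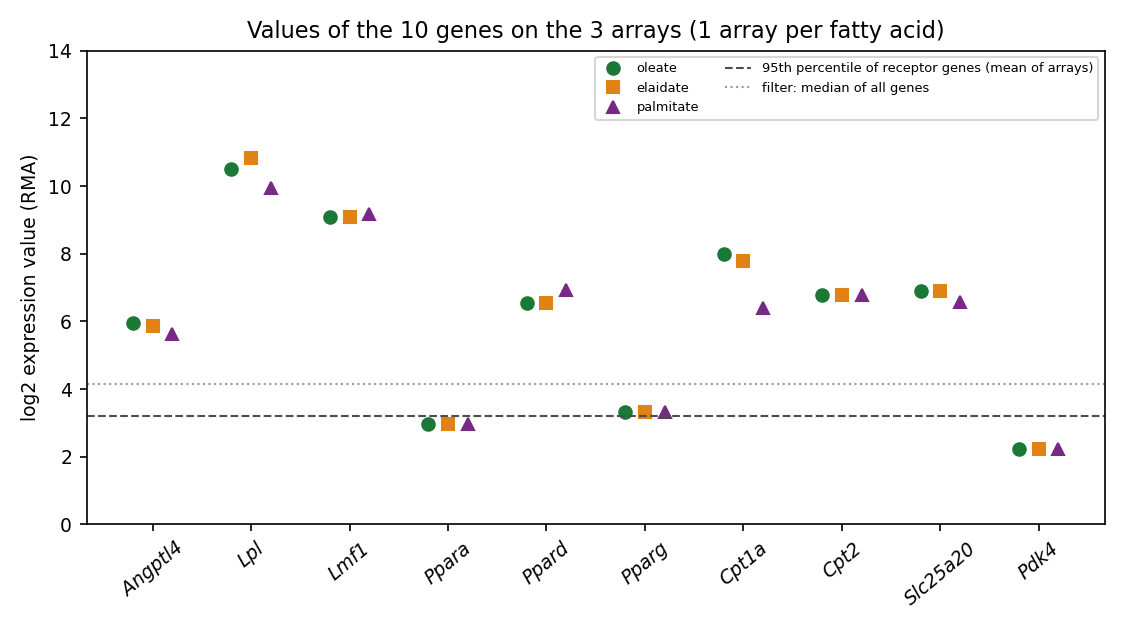
Log2 expression values (vertical axis) of the 10 genes on the oleate, elaidate and palmitate arrays, 1 point per array and no error bars because there is 1 array per fatty acid. The dashed line is the 95th percentile of receptor genes averaged over the arrays and the dotted line is the filter at 4.14. Ppara and Pdk4 lie below the dashed line, Pparg just above it, and Cpt1a shows the widest range, from 7.98 on oleate to 6.39 on palmitate.

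Angptl4 (Entrez Gene 57875) had a log2 value of 5.95 with oleate, 5.87 with elaidate and 5.61 with palmitate. The order was oleate, elaidate, palmitate from high to low, all values lying more than 2 units above the gauge. The palmitate value was lower than oleate by a log2 difference of -0.33, a fold of 1.26, and lower than elaidate by -0.25. Between the isomers the difference was -0.08 for elaidate minus oleate. None of these was large beside the genes as a whole: 20.7%, 25.1% and 26.8% of genes past the filter differed by at least as much in size in the same 3 comparisons. Without replicate arrays it cannot be said which of these levels differ beyond experimental error.

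Lpl (Entrez Gene 16956), the target of ANGPTL4, had a log2 value of 10.52 with oleate, 10.83 with elaidate and 9.94 with palmitate. Palmitate was the low array and elaidate the high one, so that the middle place fell to oleate, unlike for Angptl4 and Cpt1a. Palmitate minus elaidate was -0.89, a fold of 1.85, and 126 genes past the filter, Lpl included, were at least as low in that comparison. Counted in either direction, 2.79% of genes were at least as far from 0. Palmitate minus oleate was -0.58, a fold of 1.49, with 9.55% of genes at least as far from 0. Elaidate minus oleate was 0.31, a fold of 1.24, with 3.77% of genes at least as far from 0.

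Lmf1 (Entrez Gene 76483) encodes an endoplasmic reticulum protein that lipoprotein lipase needs to fold. Its log2 values were 9.09 with oleate, 9.08 with elaidate and 9.18 with palmitate. The range over the arrays, 0.10, was the narrowest of the members with 3 different values. About as many genes moved further as did not, since 47.7% of genes past the filter differed by at least as much between palmitate and oleate.

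Further genes that act on lipoprotein lipase came from a list of 14, of which 13 had a probe set, 6 passed the filter and 5 were near background. Of the 6, 3 had equal values on all arrays, as did 27.5% of all genes past the filter. None of the 6 reached 2-fold, which says little for so few genes. At most 1.65% of all genes past the filter did so in a given direction of any comparison. Sel1l, a partner of LMF1 in lipase maturation, was higher with palmitate than with oleate by 0.37. The related Lmf2 stood at -0.29, and the chaperone gene Calr at -0.06. Apoc2, whose protein activates the lipase, was at 3.41 on each array, and Gpihbp1, which anchors the lipase on capillaries, was at 4.52 on each. Of the angiopoietin-like relatives, Angptl8 at 3.03 and Angptl1 at 1.82 were near background and Angptl7 stood at 3.27, each with 1 value for all arrays.

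Among the other lipases, 9 of 11 had a probe set and 5 passed the filter. On the palmitate array 4 of those 5 were lower than on oleate and 1 was equal, with a median difference of -0.09 against 0 for all genes past the filter, of which 36.8% were lower and 32.3% equal. Without the filter the median of the lipases was -0.03. Daglb, a diacylglycerol lipase gene, had the widest range, with log2 values of 7.00 on oleate, 6.77 on elaidate and 6.13 on palmitate. Palmitate minus oleate was -0.87 for Daglb, a fold of 1.83. Lipe, the hormone-sensitive lipase gene, differed by -0.16 and the lysosomal lipase gene Lipa by -0.09.

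Of the receptors, Ppard (Entrez Gene 19015) had a log2 value of 6.56 with oleate, 6.53 with elaidate and 6.93 with palmitate. The palmitate array was the high one, and the values of the isomers differed by 0.02. Palmitate minus oleate was 0.37, a fold of 1.30, with 18.2% of genes past the filter at least as far from 0, and palmitate minus elaidate was 0.40, a fold of 1.32. Ppara (Entrez Gene 19013) stood at 2.97 on each array and Pparg (Entrez Gene 19016) at 3.34 on each array. At these levels a difference in Ppara or Pparg could not be resolved from the array's background.

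Of the genes for receptor partners and coregulators, 13 of 15 had a probe set and 11 passed the filter. None reached 2-fold in any comparison, which says little for so few genes. At most 1.65% of all genes past the filter did so in a given direction of any comparison. In palmitate minus oleate 4 stood higher, 4 lower and 3 at the same value (median 0). Over all genes past the filter 30.9% were higher, 36.8% lower and 32.3% equal. The RXR genes that PPAR proteins pair with were Rxra, at 6.75 on oleate and 6.59 on both other arrays, and Rxrb, at 6.67 on each. Rxrg, at 2.99 on each array, was near background. Ppargc1b, a coactivator gene of mitochondrial biogenesis, differed by -0.33 between palmitate and oleate, Nrip1, a corepressor gene, by 0.27, and the acetyltransferase gene Crebbp by 0.17. The relative of Ppargc1b, Ppargc1a, was near background at 2.15 on each array.

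Cpt1a (Entrez Gene 12894) had a log2 value of 7.98 with oleate, 7.78 with elaidate and 6.39 with palmitate. Palmitate was the low array, and the elaidate value lay 12.9% of the way from oleate to palmitate. Palmitate minus oleate was -1.60, a fold of 3.02, and palmitate minus elaidate was -1.39, a fold of 2.62. Between the isomers the difference was -0.21, a fold of 1.15, with 9.19% of genes past the filter at least as far from 0. Of the 9410 genes past the filter, 24 were at least as low as Cpt1a in palmitate minus oleate and 27 in palmitate minus elaidate, Cpt1a included in both. Counted in either direction, 0.85% and 0.744% of genes were at least as far from 0. The 2 comparisons share the palmitate array and are not independent.

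Slc25a20 (Entrez Gene 57279), the carrier of the inner membrane, had a log2 value of 6.90 on the oleate and elaidate arrays and 6.56 on the palmitate array. Palmitate was again the low array, by -0.34 against both isomers, a fold of 1.27, but 20.2% of genes past the filter were at least as far from 0 in palmitate minus oleate. Cpt2 (Entrez Gene 12896) stood at 6.77 on every array. Between palmitate and oleate the deposited values of the carnitine shuttle genes differed by unlike amounts. The first enzyme differed about 3-fold, the carrier by a small amount and the last enzyme not at all. Equal values were given to 27.5% of all genes past the filter and do not show equal transcript levels. With 1 array per fatty acid, the contrast among the shuttle genes has no replicate check.

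The upstream sequences of the shuttle genes are shown because these genes act in 1 pathway and their deposited values differed between arrays by unlike amounts. Each is the 250 bases before the annotated start of the gene in RefSeq (GRCm38.p6), written 5′ to 3′ on the gene's strand. Cpt1a lies on the plus strand at chr19:3323051-3323300, Slc25a20 on the plus strand at chr9:108661886-108662135 and Cpt2 on the minus strand at chr4:107923590-107923839. Capitals mark AGGTCA or its reverse complement TGACCT, the hexamer that nuclear receptors such as the PPAR proteins are known to bind.
Cpt1a: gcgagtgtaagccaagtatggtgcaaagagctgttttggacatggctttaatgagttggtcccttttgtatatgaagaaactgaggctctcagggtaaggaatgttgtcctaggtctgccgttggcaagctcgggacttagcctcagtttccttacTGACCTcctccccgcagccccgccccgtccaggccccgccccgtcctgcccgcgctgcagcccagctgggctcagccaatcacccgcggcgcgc
Slc25a20: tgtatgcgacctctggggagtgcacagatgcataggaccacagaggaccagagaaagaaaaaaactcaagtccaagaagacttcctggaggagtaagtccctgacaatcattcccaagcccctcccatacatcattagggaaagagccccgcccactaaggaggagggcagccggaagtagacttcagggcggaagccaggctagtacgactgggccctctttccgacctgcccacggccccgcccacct
Cpt2: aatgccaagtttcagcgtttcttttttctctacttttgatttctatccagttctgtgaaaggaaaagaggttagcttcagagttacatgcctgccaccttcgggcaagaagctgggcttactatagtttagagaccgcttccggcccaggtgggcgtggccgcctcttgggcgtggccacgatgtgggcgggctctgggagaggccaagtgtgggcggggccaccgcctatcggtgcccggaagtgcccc
Cpt1a has 1 such hexamer, TGACCT, beginning 94 bases before the start, and the other windows have none. Of the 10 genes, 8 had an entry in the promoter table, and the first listed window held the hexamer in 2, Cpt1a and Pparg. Over the first listed windows of 27025 genes the share was 13.8%, searched on both strands. The direct repeat of that hexamer with 1 base between, the form named DR1, was found in 0.037% of windows and in 0 of the 8. A match describes letters and was not tested for binding, and a PPAR site elsewhere in a gene would not be seen in these windows.

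Pdk4 (Entrez Gene 27273) stood at 2.22 on each array, 0.98 below the gauge on average, so these arrays give no resolved level for it. The other pyruvate dehydrogenase kinases were all past the filter. Pdk1, the kinase gene known for its response to hypoxia, had log2 values of 6.87 on oleate, 7.01 on elaidate and 6.03 on palmitate, with palmitate minus oleate at -0.85, a fold of 1.80. Pdk3 stood at -0.53 and Pdk2 at -0.03 in that comparison. The dehydrogenase subunit gene Dld went the other way, with log2 values of 9.14, 9.42 and 10.01 on the oleate, elaidate and palmitate arrays, and palmitate minus oleate at 0.87. Over the 10 genes of this list past the filter, 4 were higher, 3 lower and 3 equal between palmitate and oleate, beside 30.9%, 36.8% and 32.3% of all genes. None of the 10 reached 2-fold in any comparison, where at most 1.65% of all genes did so in a given direction. The median between palmitate and oleate was 0. In elaidate minus oleate 6 stood higher, 0 lower and 4 at the same value, at a median of 0.07 against 0 for all genes, of which 31.5% were higher. In palmitate minus elaidate 3 were higher, 5 lower and 2 equal, at a median of -0.01, beside 27.9%, 37.9% and 34.2% of all genes.

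**Figure D2:**
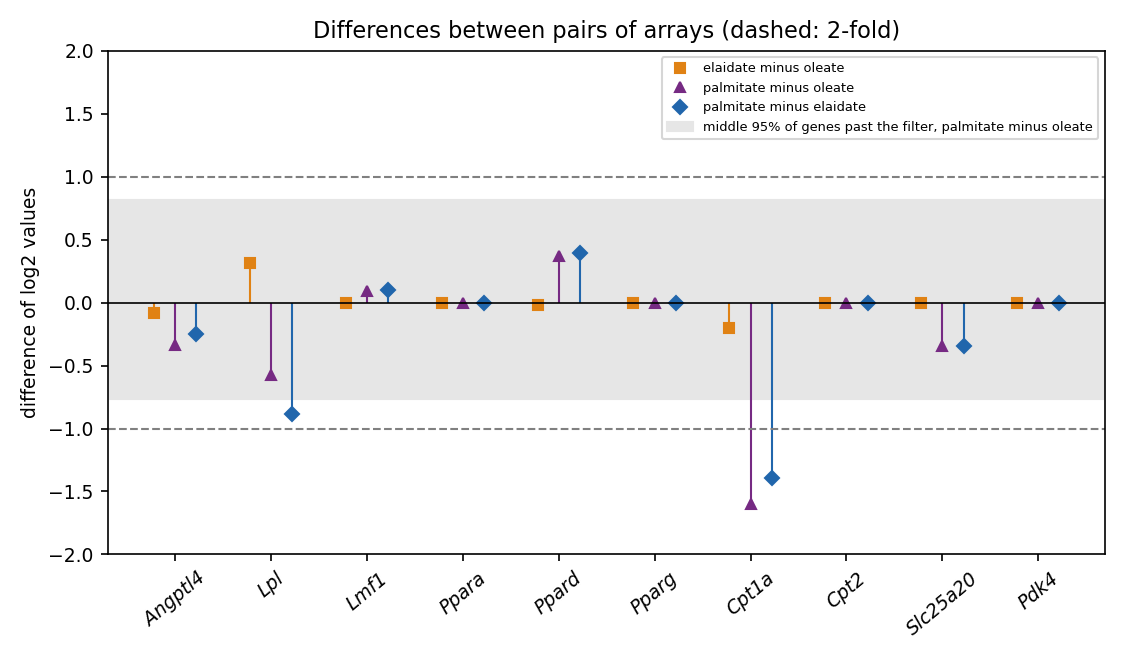
Differences of log2 values (vertical axis) between pairs of arrays for the 10 genes; dashed lines mark 2-fold and the grey band holds the middle 95% of the 9410 genes past the filter in palmitate minus oleate, from -0.76 to 0.81. Cpt1a, at -1.60 and -1.39 in the palmitate comparisons, is the gene outside the dashed lines, and Lpl in palmitate minus elaidate, at -0.89, comes next.

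Counted over the 10 genes, elaidate minus oleate gave 1 higher, 4 lower and 5 equal, and 0 reached 2-fold. Over all genes past the filter 31.5% were higher, 24.3% lower and 44.1% equal. Of them 0.106% were at least 2-fold higher on the elaidate array, and 0% at least 2-fold lower. Palmitate minus oleate gave 2 higher, 4 lower and 4 equal, with Cpt1a 2-fold lower and no gene 2-fold higher, where 1.22% of all genes past the filter were 2-fold lower and 1.65% 2-fold higher. Over all genes 30.9% were higher, 36.8% lower and 32.3% equal in that comparison. Palmitate minus elaidate gave the same counts, again with Cpt1a alone past 2-fold, beside 0.871% 2-fold lower and 0.978% 2-fold higher over all genes. There 27.9% of all genes were higher, 37.9% lower and 34.2% equal. The median over the 10 genes was 0 in each comparison, but Ppara, Pparg and Pdk4 lay below the filter with equal values throughout. All genes past the filter, also at a median of 0, are matched by the 7 members past it. Between palmitate and oleate the median of these 7 was -0.33, with 2 higher, 4 lower and 1 equal. Between palmitate and elaidate it was -0.25, with the same counts. Between the isomers it was -0.007, with 1 higher, 4 lower and 2 equal. With 1 gene past 2-fold among 10, the count says little about the genes as a group.

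Equal values need care in reading. Values were the same on all 3 arrays, to within 1e-06, for 4 of the 10 genes, and for 51.6% of all 18820 genes. Among genes past the filter the share was 27.5%, and Cpt2 was the single case among the 7 members there. RMA, the method behind the deposited values, summarises the probes of a gene through medians, which can give several arrays an identical value. An equal value therefore shows that the deposited summary held no difference, not that the transcript was equally abundant.

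Known PPAR targets outside the 10 genes went both ways. Of 34 listed, 27 had a probe set, 12 passed the filter and 8 were near background, among them the fatty acid receptor gene Cd36 at 2.27 on each array. In elaidate minus oleate 8 of the 12 were higher, 1 was lower and 3 were equal, and their median of 0.05 was 0 without the filter. Over all genes past the filter 31.5% were higher, 24.3% lower and 44.1% equal. In palmitate minus elaidate 3 were higher, 7 lower and 2 equal, and the median was -0.02. There 27.9% of all genes were higher, 37.9% lower and 34.2% equal. In palmitate minus oleate 6 of the 12 stood higher, 3 lower and 3 at the same value, beside 30.9%, 36.8% and 32.3% of all genes. The median was 0.01, which turned to -0.03 when each array was centred on its median. Acot2, a mitochondrial acyl-CoA thioesterase gene, was the highest, with log2 values of 9.22 on oleate, 9.68 on elaidate and 11.37 on palmitate. It thus stood at 2.15 in palmitate minus oleate, opposite in direction to Cpt1a. Abca1, a cholesterol exporter gene, had log2 values of 5.14, 4.86 and 6.03 on the oleate, elaidate and palmitate arrays, and palmitate minus elaidate was 1.17. Plin2, a lipid droplet coat gene that responds to fatty acids, lay close together at 11.13, 11.33 and 11.30 in the same order.

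Other carnitine genes and the enzymes of mitochondrial fatty acid oxidation gave no 2-fold difference in any comparison. At most 1.65% of all genes past the filter lay past 2-fold in a given direction of any comparison. Finding none among so few genes therefore says little about them. Of 10 carnitine genes 9 had a probe set and 6 passed the filter. In palmitate minus oleate 1 was higher, 2 lower and 3 equal, beside 30.9%, 36.8% and 32.3% of all genes, and the median was 0. Aldh9a1, an enzyme of carnitine synthesis, stood at -0.44, Slc22a4, an organic cation transporter gene, at 0.23 and Crat, the carnitine acetyltransferase gene, at -0.22. Of 19 oxidation genes 17 had a probe set and 16 passed the filter. In palmitate minus elaidate 12 of the 16 were lower and 4 equal, where 37.9% of all genes past the filter were lower and 34.2% equal. The median was small, at -0.07 against 0 for all genes. Elaidate minus oleate gave 7 higher, 2 lower and 7 equal at a median of 0, beside 31.5%, 24.3% and 44.1% of all genes. In palmitate minus oleate 8 were lower, 2 higher and 6 equal, at a median of -0.003, where 36.8% of all genes were lower, 30.9% higher and 32.3% equal. Acaa2, the thiolase gene, and Acads, the short-chain dehydrogenase gene, were both at -0.52 in that comparison, and Hadh, the hydroxyacyl-CoA dehydrogenase gene, was at -0.22. None came near the -1.60 of Cpt1a.

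**Figure D3:**
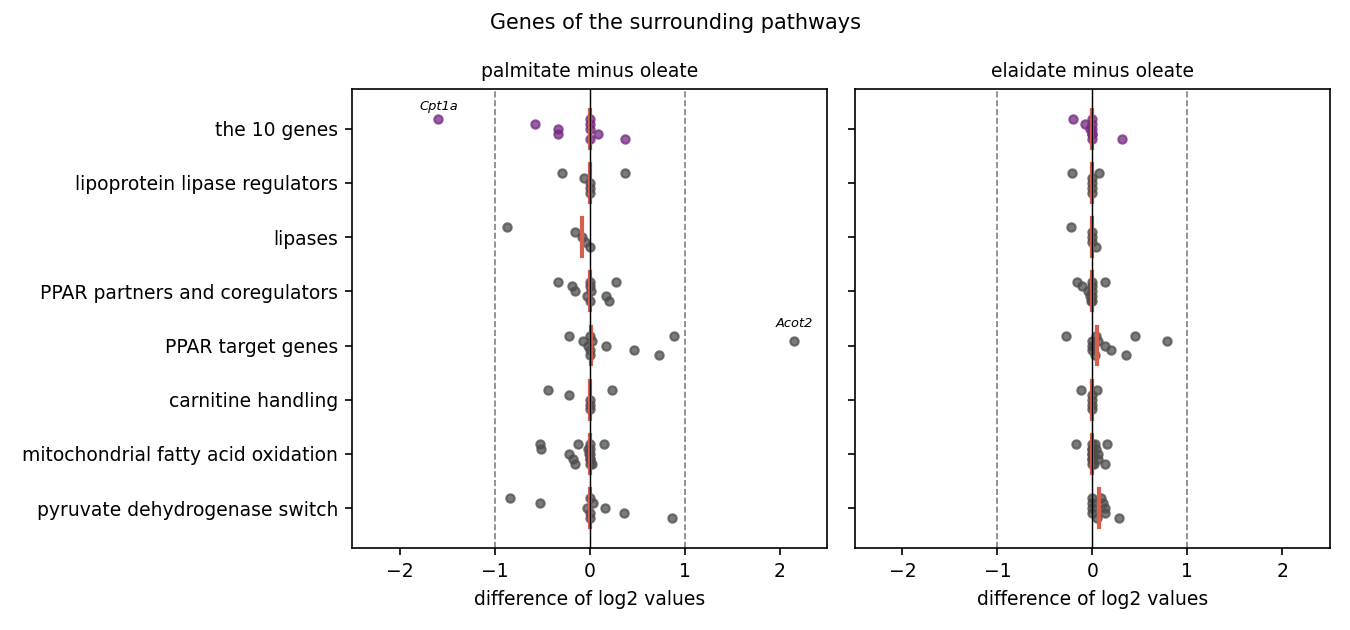
Differences of log2 values (horizontal axes) for palmitate minus oleate (left) and elaidate minus oleate (right), 1 dot per gene, for the 10 genes in the top row and for pathway genes past the filter below; red bars are medians and dashed lines mark 2-fold. Cpt1a at -1.60 and Acot2 at 2.15 are the dots past 2-fold on the left, and no dot passes 2-fold on the right.

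The genes whose pattern over the 3 arrays was most like that of Cpt1a were Gna15, Ccne1, Clec4a1, E2f8 and P2ry6. Likeness was the root mean square distance between the log2 values after each gene was centred on its own mean, and it ran from 0.01 for Gna15 to 0.04 for P2ry6. In palmitate minus oleate these genes stood at -1.60, -1.56, -1.65, -1.53 and -1.65, in that order. Gna15 encodes a G protein alpha subunit, Ccne1 a cyclin of the entry into S phase, Clec4a1 a lectin receptor, E2f8 a cell cycle transcription factor and P2ry6 a nucleotide receptor. A pattern over 3 arrays is defined by few values. These genes were chosen for likeness on the same arrays, so their similar differences follow from the choice.

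**Figure D4:**
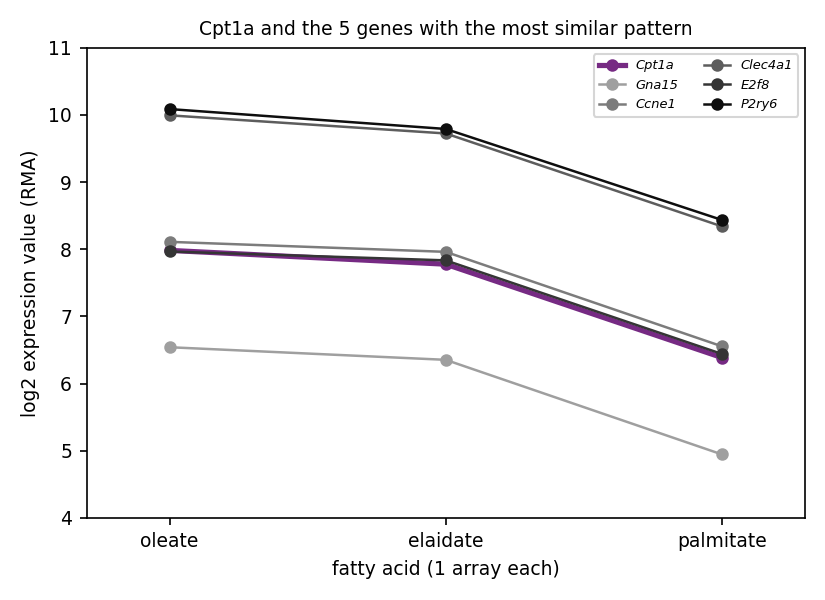
Log2 expression values (vertical axis) of Cpt1a and the 5 genes nearest to it in pattern on the oleate, elaidate and palmitate arrays, 1 point per array, with lines joining the values of a gene. All 6 lines have a small step from oleate to elaidate and a larger drop to palmitate, as for Cpt1a from 7.98 and 7.78 to 6.39. The 5 genes were chosen for likeness on these values, so the shared shape follows from the choice.

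The cells carried macrophage markers: 9 of 10 were above the gauge on each array, and Mrc1, a mannose receptor gene, was near background at 2.71. Their summed linear level was 14162 on oleate, 13402 on elaidate and 11119 on palmitate, and 7 of the 9 past the filter were lower on palmitate than on oleate while Cd68 and Ptprc were equal, beside 36.8% of all genes lower. Mertk, a receptor gene for the uptake of dead cells, stood further from 0 than Cpt1a, at -2.10 or 4.28-fold lower on palmitate than on oleate, and the lysozyme gene Lyz2 stood at -0.83. The macrophage marker level thus moved with Lpl and Cpt1a in being lowest on palmitate, and its part in those results was not tested. The cultures were all of 1 line, RAW264.7. A lower level in every cell and a lower level in part of the cells cannot be told apart in such arrays. All 5 adipocyte markers with a probe set were near background on every array, their summed level 34.8 on each. Of the measured markers of the other cells, at most 2 of 4 for hepatocytes, 3 of 5 for muscle, 2 of 5 for fibroblasts and 1 of 5 for lymphocytes were above the gauge on any array. Most genes lay above it too, since Pparg, 0.13 above the gauge on average, had a higher mean than only 42.2% of all genes. The counts for hepatocytes and muscle therefore say little. Mean log2 levels on oleate were 9.21 for macrophage markers, 3.67 for hepatocyte, 3.67 for muscle, 2.92 for fibroblast and 2.83 for lymphocyte markers.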

How the data were processed

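Per the labels' protocols, RNA from 3 cultures was biotin-labelled for Affymetrix whole-transcript arrays. The authors deposited a log2 value for each probe set. The submitters' processing notes name RMA as the method; its version and a genome build are not given in the sources used here. Of 35556 probe sets, 21218 had 1 gene symbol in the platform annotation and 21185 of these matched RefSeq by gene identifier. Probe sets of a gene were averaged. The files hold no replicates, so the number of arrays limits precision, no test was made, and called means past 2-fold.

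The members, the gene lists and the rules were chosen with earlier results of these data known. All 10 members were named. Pathway genes past the filter and past 2-fold in any comparison were named, or else the 3 with the widest range; Apoc2, Gpihbp1, the RXR genes, Ppargc1a, Pdk2, Cd36, Plin2, Mrc1, Cd68, Ptprc, Mertk, Lyz2 and the angiopoietin-like genes were named after their values were seen. Genes alike to a member were sought where its range reached 1 unit, leaving out predicted, small RNA and olfactory or vomeronasal receptor genes. Centring and cyclic loess (limma 3.58.1 in R 4.3.3, span 0.7, 3 iterations), fold limits, filters, background limits and probe set choice were varied. Python 3.11.15, numpy 2.4.6, pandas 2.3.3 and matplotlib 3.10.9 were used. The counting and likeness steps were tested on simulated data.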

Additional observations from a re-analysis of the deposited data

How the results depend on the processing

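Cyclic loess moved the 30 member differences by at most 0.0035, and no difference other than 0 changed sign. Centring shifts every gene of a comparison by 1 constant, at most 0.04 here, and the choice of probe set has no effect on members with 1 probe set each, so neither bears on the stability of a member. Of members at least 2-fold different between palmitate and elaidate (1 as reported), a limit of 1.5-fold gave 2, adding Lpl, and a limit of 3-fold gave 0; between palmitate and oleate Cpt1a stayed past 3-fold. Over all genes, limits of 1.5-fold and 3-fold gave 74 and 0 instead of 10 for elaidate minus oleate, 875 and 81 instead of 270 for palmitate minus oleate, and 716 and 48 instead of 174 for palmitate minus elaidate. A filter at the 75th percentile tests fewer genes and gave 157 and 96 in the palmitate comparisons. With the 90th percentile of receptor genes as gauge 1 member, Pdk4, was near background instead of 2; with the 99th percentile or the median of all genes there were 3, Pparg being added. Without the filter the lipase median was 0 instead of -0.13 in palmitate minus elaidate. List medians under the 2 scalings were added after seeing the data, and those at 0 took small values of either sign, at most 0.04 in size. No paired analysis was possible because each fatty acid has 1 array. Signal over background limits Ppara, Pparg and Pdk4, for which no difference could be resolved.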

Other observations

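Among markers of other cells, Tnnt2, which encodes cardiac troponin T, was above the gauge on all 3 arrays, at 6.76 on oleate, 6.53 on elaidate and 6.36 on palmitate. The albumin gene Alb stood at 5.03 on both isomers and 4.87 on palmitate. The fatty acid binding protein genes Fabp4 and Fabp5, known PPAR targets, had their highest values on the elaidate array, as Lpl did. Fabp4 had log2 values of 5.25 on oleate, 6.04 on elaidate and 5.71 on palmitate. Fabp5 had 7.60, 7.95 and 7.38 in the same order. These genes were picked after their values were seen, and with 1 array per fatty acid the pattern has no replicate check.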
